A study of Mus musculus with 8 samples.

Results

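The genes described here encode 10 proteins that methylate DNA or repress genes through chromatin: Dnmt1, Dnmt3a, Dnmt3b, Uhrf1, Ezh2, Eed, Suz12, Hdac1, Hdac2 and Mbd3. They were measured in primitive erythroid precursors, the first red cell precursors of the embryo, and in epithelial cells of the same mouse yolk sacs. The members were taken by gene symbol with no cut on their values, though earlier results of these data were known. They are 10 of the 12393 genes that had a probe set of their own on the array. All 23 probe sets annotated to them were read. Each was annotated to a single gene, and 20 of the 23 were bright enough to be tested.

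Both cell types were cut with a laser from frozen 8 micron sections of yolk sacs of FVB/N mice at embryonic day 9.5. The labels name no mutant allele and no treatment. There were 4 erythroid captures and 4 epithelial captures in 4 pairs, and the captures of a pair came off the same slides. Each replicate pooled 2 to 4 yolk sacs from 2 litters, and an erythroid cell took 2 to 3 laser pulses where an epithelial cell took 1. Each capture was read on 1 Affymetrix 430A 2.0 array after a labelling protocol of 2 amplification cycles.

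DNA methylation is a chemical mark on cytosines, mostly where a guanine follows. Dnmt3a and Dnmt3b place it on unmarked DNA, whereas Dnmt1 copies it to the new strand after replication, guided there by Uhrf1. Ezh2, Eed and Suz12 form the core of Polycomb repressive complex PRC2, which methylates histone H3 and keeps developmental genes silent. Hdac1 and Hdac2 remove acetyl groups from histones within several repressor complexes, and Mbd3 is a subunit of NuRD, which joins such deacetylases to a chromatin remodeller. Red cell precursors condense their chromatin as they mature, and in adult-type red cells embryonic globin genes are kept silent with the help of several of these proteins.

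The signal is the deposited array intensity on a linear scale. Background was set on each array at the signal below which 95% of 117 probe sets for odorant receptors and like genes lay, and ran from 55.1 to 133 on the 8 arrays. Arrays of pairs 1 and 2 stood apart from those of pairs 3 and 4: the 3' end of the Gapdh control outshone its 5' end 38.7 to 44.4 times in the first set and 7.0 to 17.4 times in the second. Such a ratio can rise when RNA is shortened, and its cause was not tested. Values within each of these sets of pairs therefore stand beside the pooled one for each gene called. Red cell markers were higher in the erythroid captures for 10 of 11 tested genes, with summed signals of 36010.1 to 67841 in erythroid and 7397 to 17868 in epithelial captures. Epithelial markers were lower for 12 of 14, with sums of 59867 to 95622 in erythroid and 100488 to 167720 in epithelial captures. Afp and Ttr, both counted in these sums, were not called. Their signals averaged 26340 and 28477 in erythroid captures, and 26125 and 29130 in epithelial captures. Mesenchyme and mesothelium markers were also higher in the erythroid captures, for 8 of 12 genes. Their summed signal was 41633 to 63071 in erythroid and 9194 to 36569.7 in epithelial captures, and their median log2 difference was 0.36 in the first set of pairs and 2.34 in the second. Endothelial markers were higher for 1 of 5 tested genes, at summed signals of 906 to 1958 in erythroid and 484 to 893 in epithelial captures, and Pecam1 and Tie1 lay above background on no array. Megakaryocyte and platelet markers were higher for 3 of 5 (5036 to 18568 in erythroid and 1585 to 2708 in epithelial captures), with Gp9 above background on no array. Macrophage and leukocyte markers were called by limma for 0 of 3, at summed signals of 1098 to 1633 in erythroid and 748 to 1151 in epithelial captures. At an unadjusted limma p under 0.05, 2 of the 3 were higher, as were 1028 of all 7191 genes tested. Cd68, Aif1 and Itgam were above background on no array. In captures of this kind, fewer cells of a type and less RNA per cell cannot be told apart, and the part that these other cells had in the differences below was not tested.

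Of the 10 repressor genes, 7 had no probe set that was called between the captures. Differences are log2 values of erythroid minus epithelial captures after quantile normalisation, tested with limma with a term for the pair and called at a Benjamini-Hochberg adjusted p under 0.05. Of the 20 probe sets tested, 2 were higher in the erythroid captures, 2 were lower and 16 were not called. Across the array 13.9% of 11449 probe sets were called, 6.19% higher and 7.69% lower. The called probe sets belonged to 3 genes. Uhrf1 was higher on 1 of its 2 probe sets, Hdac2 on its only probe set, and Dnmt3a was lower on 2 of 5. With 1 value per gene, that of the probe set whose normalised log2 level averaged highest, 2 of the 10 genes were higher and 0 lower. Of 7191 genes 14.9% were called, 6.02% higher and 8.87% lower. At an unadjusted limma p under 0.05 the 10 genes gave the same counts, while 1028 of the 7191 genes were higher and 1208 lower. Had the probe set been taken by mean deposited signal, a rule added after the values were seen, Dnmt3a would be read from 1423064_at (307) in place of 1423063_at (266), and 1 gene would be lower. The median log2 difference of the 10 genes was 0.05 by either rule, and that of all genes tested was -0.01. The 95% interval of the difference lay within 2-fold either way for 11 of the 20 probe sets, and for 51.8% of all those tested. The sign was the same in all 4 pairs for 5 of the 20, and for 37% of all those tested.

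**Figure D1:**
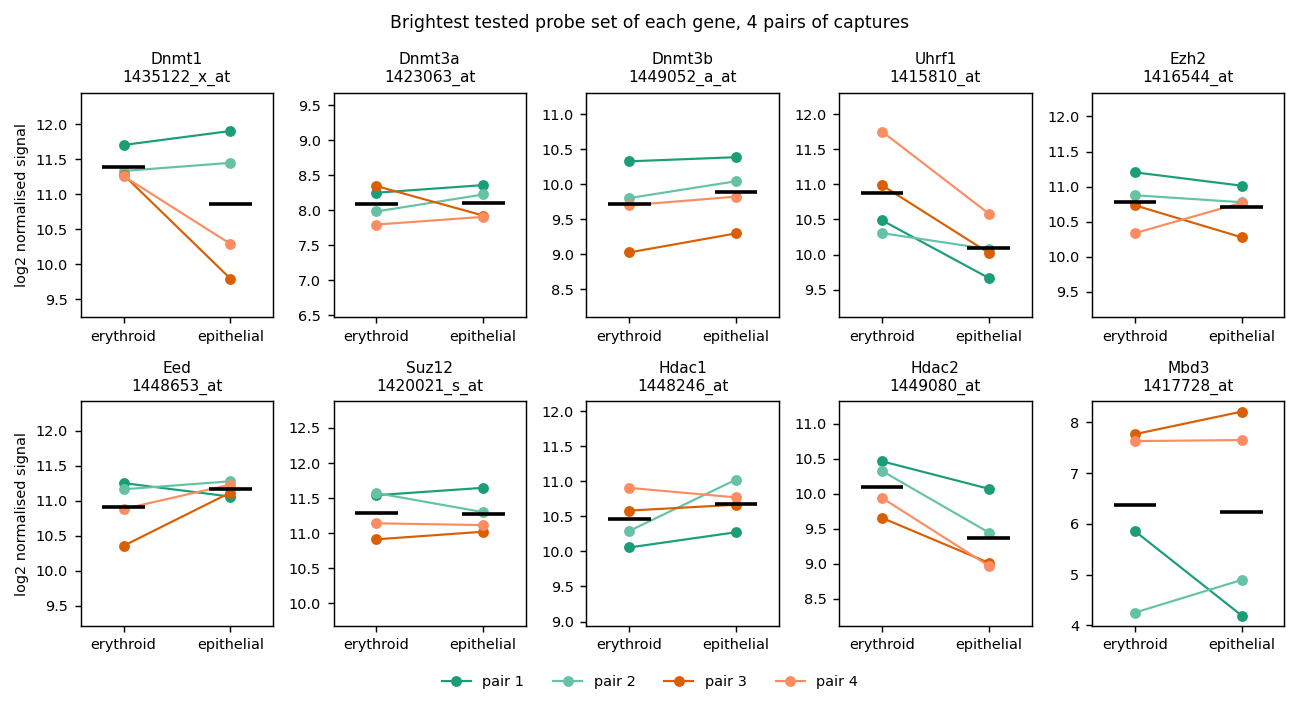
Normalised log2 signal of each of the 10 genes, read on the probe set that averages highest on that scale, with the 4 erythroid captures left of the 4 epithelial captures, a line joining each pair and a black bar at each mean. All 4 lines slope down towards the epithelial captures for Uhrf1 and Hdac2, and Mbd3 is split by pair rather than by cell type.

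Uhrf1, which recognises hemimethylated DNA behind the replication fork and brings Dnmt1 there, was higher in the erythroid captures on its brighter probe set. On 1415810_at the signal in pairs 1 to 4 was 1373, 1194, 1970.1 and 3264 in erythroid captures, against 737, 1048, 1058 and 1670.2 in epithelial captures. The groups overlapped, since the epithelial capture of pair 4 was brighter than the erythroid captures of pairs 1 and 2, but in each pair the erythroid capture was brighter. The log2 difference was 0.80 ± 0.20 (SE, n = 4 pairs, limma adjusted p = 0.0258), which is 1.74-fold. The signal averaged 1950.2 ± 936 across erythroid captures and 1128 ± 391 across epithelial ones (SD, n = 4 each). Pairs 1 and 2 gave 0.53 and pairs 3 and 4 gave 1.07, and the test of the difference between these sets did not pass (adjusted p = 0.537). The adjusted p was 0.0631 without replicate 1, 0.0947 without replicate 3 and 0.158 without replicate 4, so the call ended there, as it did in pairs 1 and 2 alone (0.209), without the pair term (0.223), and with arrays centred on their medians, where the value was 0.55 (0.121). The dimmer probe set 1415811_at, above background on 3 of 4 erythroid and 4 of 4 epithelial captures, did not follow it. Its signal was 215, 155, 91.7 and 94.5 in erythroid captures and 115, 189, 229.6 and 152 in epithelial captures, with a log2 difference of -0.44 ± 0.40 (SE, n = 4 pairs, limma adjusted p = 0.503). The brighter probe set gave the larger difference in 4 of 4 pairs, by 1.24 on average (SD 1.18, n = 4, exact sign-flip p = 0.125, two-sided, the smallest that 4 pairs can give). The mean of both probe sets was at 0.18 (adjusted p = 0.626), with no call.

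Dnmt1, the maintenance methyltransferase, was not called on either probe set. On 1422946_a_at the signal was 718, 512, 497 and 862 in erythroid captures and 573, 678, 492 and 676 in epithelial captures, and the groups overlapped in part. The log2 difference was 0.05, with a 95% interval of -0.42 to 0.52 (limma adjusted p = 0.903). The brighter probe set, 1435122_x_at, had 3348, 2506, 2381 and 2490.2 in erythroid captures and 4084, 2731, 890.4 and 1371 in epithelial captures. Here the epithelial captures of pairs 3 and 4 lay below all others, while those of pairs 1 and 2 lay above their erythroid partners. The log2 difference was 0.53 ± 0.27 over all pairs (SE, n = 4 pairs, limma adjusted p = 0.216). Pairs 1 and 2 gave -0.16, whereas pairs 3 and 4 gave 1.22. The difference between the sets passed its test (adjusted p = 0.0257), as did 1.84% of all probe sets, and it was not called without replicate 1 (0.0904), without replicate 2 (0.0558) or without replicate 3 (0.0755), nor with arrays centred on their medians (0.22) or 75th percentiles (0.0697). The other probe set of Dnmt1 was at -0.06 and 0.16 in these sets. An x in the identifier marks a kind of probe set that can pick up other transcripts, so the value for Dnmt1 is uncertain.

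Replication genes were read beside Uhrf1 and Dnmt1, because both proteins act at the fork. Pcna, the sliding clamp of DNA polymerases that also binds Dnmt1, was higher in the erythroid captures, with a signal of 4867, 4393, 6512 and 7510.3 in them against 2569.8, 2368, 3416 and 3929.6 in epithelial captures. The groups did not overlap, and the log2 difference was 0.98 ± 0.14 (SE, n = 4 pairs, limma adjusted p = 0.00222), with 0.87 in the first set of pairs and 1.10 in the second. Of 23 other DNA replication genes tested, 3 were higher and 0 lower, and 20 of the 23 had a value above 0, with a median of 0.45 (pairs 1 and 2, 0.12; pairs 3 and 4, 0.53). Rrm1, a subunit of the enzyme that makes deoxynucleotides, was at 0.94, the origin licensing factor Cdc6 at 0.86 and the clamp loader subunit Rfc4 at 0.82, while another clamp loader subunit, Rfc2, was at -0.05 (adjusted p = 0.919). These calls ended without replicate 4 (adjusted p = 0.12 for Rrm1, 0.105 for Cdc6 and 0.0596 for Rfc4), those of Rrm1 and Cdc6 also without replicate 3 (0.0961 and 0.0605), and that of Cdc6 without replicate 2 (0.0576). Pairs 1 and 2 gave 0.43 for Rrm1, 0.80 for Cdc6 and 0.82 for Rfc4, and pairs 3 and 4 gave 1.44, 0.92 and 0.82. In pairs 1 and 2 alone Rrm1 (adjusted p = 0.24) and Cdc6 (0.0762) were not called. The count of 3 became 0 to 6 when 1 pair was left out, and 0 with arrays centred on their medians. It was 9 at an unadjusted limma p under 0.05, where 1028 of all 7191 genes tested were higher. Of 14 mitosis genes, the proliferation marker Mki67 at 1.04 (adjusted p = 0.00643) and the topoisomerase Top2a at 0.64 (0.0448) were higher and 0 were lower, with a median of 0.16. Top2a was not called without replicate 1 (0.093), without replicate 3 (0.171) or without replicate 4 (0.151), nor in pairs 1 and 2 alone (0.281). Mki67 was at 0.63 in the first set and 1.45 in the second, and Top2a at 0.38 in the first and 0.89 in the second. Of 8 genes of the E2F and Rb families, which switch replication genes on and off, Rb1 was higher by 1.37 (adjusted p = 0.00515) and E2f5 by 0.98 (0.0228), and 0 were lower. The call of E2f5 ended without replicate 3 (0.0947) and without replicate 4 (0.114), and in pairs 1 and 2 alone (0.226). The first set of pairs gave 1.00 for Rb1 and 0.55 for E2f5, the second 1.74 and 1.41. E2f1 was at 0.11 (0.82).

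Promoter windows are shown for Uhrf1 and Hdac2, which had a probe set called higher, and for Dnmt1 and Ezh2, which had none called. They run from 250 bases before to 50 bases after a transcript start (RefSeq, GRCm38.p6), 5′ to 3′ in the direction of the gene, and capitals mark a match to an E2F motif on either strand. Uhrf1 has 2 windows in the table and Dnmt1 has 3, for different starts, and of each gene the 1 window with a match is shown; the others hold none.
Uhrf1 chr17:56304063-56304362 (+ strand): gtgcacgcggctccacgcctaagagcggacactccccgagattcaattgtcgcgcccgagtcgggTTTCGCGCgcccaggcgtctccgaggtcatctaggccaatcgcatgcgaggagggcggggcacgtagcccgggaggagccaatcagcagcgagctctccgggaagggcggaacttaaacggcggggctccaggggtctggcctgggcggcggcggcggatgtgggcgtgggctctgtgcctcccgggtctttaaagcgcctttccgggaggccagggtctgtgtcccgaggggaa
Hdac2 chr10:36974294-36974593 (+ strand): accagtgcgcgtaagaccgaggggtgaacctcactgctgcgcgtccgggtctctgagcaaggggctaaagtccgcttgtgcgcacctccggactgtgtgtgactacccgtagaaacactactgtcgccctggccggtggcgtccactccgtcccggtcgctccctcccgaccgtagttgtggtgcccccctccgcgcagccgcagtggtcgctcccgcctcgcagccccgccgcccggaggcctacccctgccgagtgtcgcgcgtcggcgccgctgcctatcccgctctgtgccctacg
Dnmt1 chr9:20952574-20952873 (- strand): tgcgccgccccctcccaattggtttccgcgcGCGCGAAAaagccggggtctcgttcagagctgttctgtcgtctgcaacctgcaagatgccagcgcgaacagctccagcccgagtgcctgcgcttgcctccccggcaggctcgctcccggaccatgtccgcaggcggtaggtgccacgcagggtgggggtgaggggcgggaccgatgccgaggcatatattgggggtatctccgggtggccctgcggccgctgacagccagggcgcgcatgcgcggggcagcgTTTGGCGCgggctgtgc
Ezh2 chr6:47594981-47595280 (- strand): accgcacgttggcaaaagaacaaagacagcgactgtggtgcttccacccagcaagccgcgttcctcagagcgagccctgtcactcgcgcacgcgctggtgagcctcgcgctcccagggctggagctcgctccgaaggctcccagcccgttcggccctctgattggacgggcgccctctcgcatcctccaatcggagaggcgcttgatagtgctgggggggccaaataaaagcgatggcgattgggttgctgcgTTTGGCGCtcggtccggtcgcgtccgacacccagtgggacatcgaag
The motif was searched as TTTCCCGC, TTTCGCGC, TTTGCCGC and TTTGGCGC on both strands. A match stood in 2.26% of all 32851 windows and in 4 of the 14 windows of 9 members; the table used holds none for Hdac1. These were in Uhrf1 (TTTCGCGC, first base at -185 from the start), Ezh2 (TTTGGCGC, at 4), Suz12 (TTTCCCGC, at -219) and Dnmt1 (TTTGGCGC at 34, and GCGCGAAA, the reverse complement of TTTCGCGC, at -219). Of the 4 genes with a match, Uhrf1 was called on 1 of its 2 probe sets, and Ezh2, Suz12 and Dnmt1 on none. The window of Hdac2 held no match, nor did those of Dnmt3a, which was lower on 2 of its 5 probe sets. In the DNA replication list 9 of 25 windows held a match. Members' windows held 2 to 47 CpG dinucleotides, with a median of 30.5, against a median of 7 over all windows. Every motif searched contains a CpG as well, and shares of matches were not compared at like CpG content. A match describes the letters only.

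The enzymes that set new methylation gave no common picture. Dnmt3a had 5 probe sets, which share 1 representative sequence in the platform annotation, and 2 of them were lower in the erythroid captures. On 1423064_at the signal was 249, 141, 223 and 81.9 in erythroid captures, against 432, 361, 643 and 324 in epithelial captures. The groups did not overlap, and 3 of the 4 erythroid captures lay above background. The mean signal was 174 ± 76.7 in erythroid and 440.1 ± 142 in epithelial captures (SD, n = 4 each). The log2 difference was -1.42 ± 0.26 (SE, n = 4 pairs, limma adjusted p = 0.00584), the largest among the 20 probe sets. Pairs 1 and 2 gave -1.11, and pairs 3 and 4 gave -1.74. It kept its call when any 1 pair was left out (adjusted p = 0.00899 to 0.0467) and lost it in pairs 1 and 2 alone (0.051) and with no pair term (0.0592).

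On 1423065_at the signal was 145, 84.3, 214 and 148 in erythroid captures and 166, 259, 384 and 289 in epithelial captures. The erythroid capture of pair 3 overlapped with the epithelial one of pair 1, and the erythroid capture was the dimmer in every pair. Of the 4 erythroid captures, 3 lay above background. The log2 difference was -0.99 ± 0.29 (SE, n = 4 pairs, limma adjusted p = 0.0477), and it was -0.99 in both sets of pairs, without a call in either alone (adjusted p = 0.288 in the first and 0.0512 in the second). The adjusted p was 0.123 without replicate 2, 0.128 without replicate 3 and 0.185 without replicate 4, so the call ended there, and also with the deposited scaling (0.0958), with 75th percentile centring (0.0709), with an offset of 1 (0.0501) and with no filter (0.115).

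The other probe sets of Dnmt3a were not called. The one with the highest mean on the normalised log2 scale, 1423063_at, had 286, 230.0, 342 and 243 in erythroid captures and 276, 302, 224 and 224 in epithelial captures, and its log2 difference was -0.01 with a 95% interval of -0.55 to 0.53. On 1460324_at the signal was 352, 300.0, 497 and 207 in erythroid and 347, 176, 245 and 114 in epithelial captures, a log2 difference of 0.55 ± 0.27 (SE, n = 4 pairs, limma adjusted p = 0.201). The erythroid capture was higher in 4 of 4 pairs by deposited signal and in 3 of 4 after normalisation, where pair 1 was at -0.11. The dimmest, 1423066_at, was above background on 1 of 4 arrays of the first set of pairs, on 4 of 4 of the second, and gave 0.29 (limma adjusted p = 0.744). Its signal was 134, 38.5, 135 and 189.6 in erythroid captures and 38.7, 27.6, 208 and 159 in epithelial captures. The log2 difference on each of the 2 called probe sets was lower than that on each of the other 3 in 4 of 4 pairs, by 0.98 to 1.97 on average. All 6 of these comparisons gave an exact sign-flip p of 0.125, the smallest that 4 pairs allow, and an adjusted value of 0.339 over the 19 comparisons of probe sets of 1 gene. The 2 probe sets were set apart by their calls in these same data, and the 6 comparisons share probe sets. They are therefore no separate support for a difference between probe sets. The mean of all 5 probe sets was at -0.32 (adjusted p = 0.422), so whether Dnmt3a is read as lower depends on the probe set.

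Dnmt3b, the other enzyme for new marks, was not called. Its brighter probe set, 1449052_a_at, had 1223, 833, 531 and 905 in erythroid captures and 1285, 1026, 632 and 989 in epithelial captures. The erythroid capture was the dimmer in 4 of 4 pairs. Its log2 difference was -0.17, with a 95% interval of -0.59 to 0.24 (limma adjusted p = 0.587). The dimmer probe set, 1418351_a_at, had 219, 138, 146 and 182 in erythroid captures and 135, 190.1, 60.8 and 179.8 in epithelial captures. By these signals the erythroid capture was the higher in pairs 1, 3 and 4, and by the normalised log2 values in pairs 1 and 3. The log2 difference over the pairs was 0.20 with an interval of -0.55 to 0.95. Among 7 other DNA methylation genes tested, Pcna alone was called. The methyl-CpG binding protein Mbd2 was at 0.51 (adjusted p = 0.227), Trdmt1, a methyltransferase acting on transfer RNA, at -0.43 (0.274) and Dmap1, a partner of Dnmt1, at -0.05 (0.934). Of the demethylation genes, 2 were bright enough to test. Gadd45a, a stress gene linked to demethylation, was higher by 1.03 (adjusted p = 0.016), with no call without replicate 2 (0.0546) or without replicate 4 (0.0642). The first set of pairs gave 1.25 and the second 0.81, which alone was not called (0.0501). Its relative Gadd45b was at -0.27 (0.733).

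**Figure D2:**
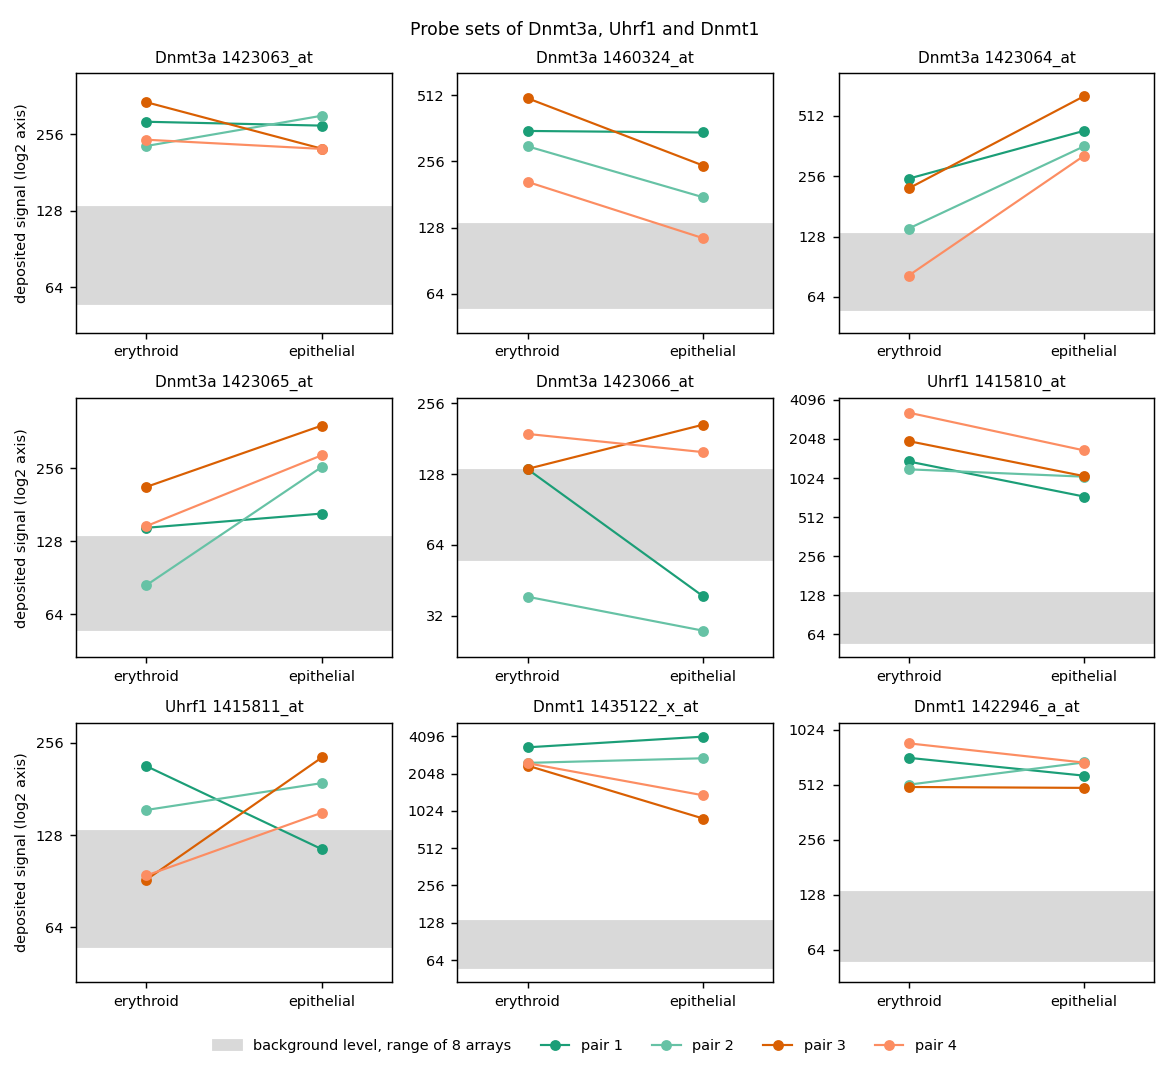
Deposited signal (log2 axis) of each tested probe set of Dnmt3a, Uhrf1 and Dnmt1, with erythroid captures left of epithelial captures, a line for each pair and the background levels of the 8 arrays as a grey band. In every pair the erythroid capture lies below its partner on Dnmt3a 1423064_at and 1423065_at, which is not so on the other 3 probe sets of Dnmt3a, and Dnmt1 1435122_x_at is split by pair.

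No probe set of the PRC2 core was called. Ezh2, the catalytic subunit, had 2305, 1803, 1632 and 1389.9 in erythroid captures and 2034, 1700.2, 1232 and 1887 in epithelial captures. Its log2 difference was 0.08, with a 95% interval of -0.35 to 0.50 (limma adjusted p = 0.825). Eed, which binds the mark that the complex makes, had 2369, 2198, 1259 and 1961 in erythroid captures and 2116, 2448, 2210.4 and 2565 in epithelial captures. The erythroid capture was the dimmer in 3 of 4 pairs, with that of pair 3 the dimmest of the 8, and the log2 difference was -0.26, with an interval of -0.68 to 0.16 (limma adjusted p = 0.405). The first set of pairs gave 0.04 and the second -0.55, which alone was not called (0.0988). Suz12, which holds the complex together, had 6 probe sets, some of a kind shared by several transcripts (an s in the identifier), of which 4 were tested and 0 called. On the brightest, 1420021_s_at, the signal was 2974, 3006, 1857 and 2308 in erythroid and 3318, 2488, 2078 and 2375 in epithelial captures, a log2 difference of 0.02 with an interval of -0.33 to 0.37. On 1427253_s_at the signal was 699, 513, 806 and 702 in erythroid and 397, 386, 485 and 746 in epithelial captures, a log2 difference of 0.46 (limma adjusted p = 0.195), with the erythroid capture dimmer in pair 4. On 1452364_at it was 466, 222, 414 and 350.0 in erythroid and 200.3, 206, 323 and 339.5 in epithelial captures, a log2 difference of 0.39 (limma adjusted p = 0.345). The fourth, 1449661_at, lay near background and gave -0.015 with a wide interval of -0.97 to 0.94. The probe sets too dim to be tested were 1420020_at and 1420022_s_at of Suz12 and 1453830_at of Eed, and 1420020_at was above background on no array. The second probe set of Eed, 1453830_at, had 45.9, 50.6, 87.3 and 14.8 in erythroid captures, none of them above background, and 100.3, 80.2, 34.9 and 24.8 in epithelial captures, of which 1 was.

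Of 6 other PRC2 genes tested, 0 were called by limma, at a median of -0.25. At an unadjusted limma p under 0.05, 3 of the 6 were lower, as were 1208 of all 7191 genes tested. Ezh1, the other catalytic subunit, was at -0.86 (adjusted p = 0.075) and the histone binding protein Rbbp7 at -0.25 (0.075), both lower in 4 of 4 pairs, while Mtf2 was at 0.31 (0.289) and Rbbp4 at -0.25 (0.158). Of 9 genes of the other Polycomb complex, PRC1, 0 were called by limma, at a median of 0.07. By the unadjusted p 1 of the 9 was higher, as were 1028 of all 7191 genes tested. Cbx6, a subunit that reads the PRC2 mark, was at 1.19 (adjusted p = 0.145), the ubiquitin ligase Rnf2 at -0.27 (0.407) and Yaf2 at 0.07 (0.81). The demethylase Kdm6a, which removes that mark, was at -0.03 (0.959).

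The histone deacetylases Hdac1 and Hdac2, close relatives that work in the same complexes, did not both pass the test. Hdac2 was higher in the erythroid captures, with 1344, 1214, 800.4 and 1059.5 against 1010.2, 679, 518 and 540.3 in epithelial captures. The groups overlapped at 1 point, the epithelial capture of pair 1, which was brighter than the erythroid capture of pair 3. The log2 difference was 0.72 ± 0.20 (SE, n = 4 pairs, limma adjusted p = 0.0381), which is 1.65-fold, and it was higher in 4 of 4 pairs. The mean signal was 1104 ± 234 in erythroid and 687 ± 227 in epithelial captures (SD, n = 4 each). Pairs 1 and 2 gave 0.64, and pairs 3 and 4 gave 0.81. The call ended when any 1 pair was left out (adjusted p = 0.0509 without replicate 1, 0.107 without replicate 2, 0.0834 without replicate 3 and 0.18 without replicate 4), in pairs 1 and 2 alone (0.103), without the pair term (0.23), and with arrays centred on their medians (0.52, adjusted p = 0.178). Hdac1 had 1015, 1188, 1486 and 1993 in erythroid captures and 1178, 2025, 1631 and 1890.4 in epithelial captures. Its log2 difference was -0.22, with a 95% interval of -0.66 to 0.21 (limma adjusted p = 0.487), at -0.48 in the first set of pairs and 0.03 in the second. Whether the differences of Hdac1 and Hdac2 differ from each other was not tested.

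Of 9 other deacetylases tested, 0 were called by limma, at a median of -0.08. At an unadjusted limma p under 0.05, 3 of the 9 were lower, as were 1208 of all 7191 genes tested. Hdac7 was at -1.24 (adjusted p = 0.143), Hdac6 at -1.12 (0.15), Sirt3 at -0.89 (0.114), Hdac11 at 0.72 (0.257), Sirt1 at 0.41 (0.178), Hdac3 at 0.24 (0.527) and Hdac5 at -0.08 (0.902). The sets of pairs lay far apart for some of these. In the first set Hdac7 was at -2.17, Hdac6 at -0.12 and Hdac11 at -0.27, and in the second at -0.30, -2.13 and 1.71. The test of the difference between the sets passed for none of these 3 (adjusted p = 0.409 for Hdac7, 0.187 for Hdac6 and 0.0575 for Hdac11). In pairs 3 and 4 alone Hdac6 was called lower (limma adjusted p = 8.27e-07) and Hdac11 higher (2.23e-05). That fit called many probe sets, 1402 higher and 1457 lower of 11449 tested.

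Mbd3 split by pair and not by cell type. Its only probe set, 1417728_at, had 55.4, 11.7, 232 and 214 in erythroid captures and 9.68, 28, 280.1 and 178 in epithelial captures. All 4 arrays of pairs 3 and 4 were above background and 0 of the 4 of pairs 1 and 2 were. The log2 difference between cell types was 0.14 with a 95% interval of -1.17 to 1.44 (limma adjusted p = 0.905), so the interval reached past 2-fold in both directions. In pairs 3 and 4 alone it was -0.23 (adjusted p = 0.743). Among 16 partners of the NuRD, Sin3 and CoREST complexes, through which Hdac1 and Hdac2 act, 0 were called by limma, at a median of 0.08. At an unadjusted limma p under 0.05, 1 of the 16 was higher, as were 1028 of all 7191 genes tested. The remodeller Chd4 was at 0.04 (adjusted p = 0.95), the demethylase Kdm1a at 0.07 (0.867), Mta3 at 0.90 (0.241), Rcor1 at -0.002 (0.995) and the scaffold Sin3a at -0.55 (0.182).

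Of 12 genes of heterochromatin and its histone marks, 1 was higher and 0 lower, at a median of 0.32. Cbx5, a heterochromatin protein that binds methylated histone H3, was higher by 0.99 ± 0.24 (SE, n = 4 pairs, limma adjusted p = 0.0199), with no call without replicate 3 (0.0839) or without replicate 4 (0.128). The first set of pairs gave 0.58, without a call (0.266), and the second 1.39. Its signal was 649, 707, 865 and 846 in erythroid captures and 399.9, 491, 324 and 289 in epithelial captures, so the groups did not overlap. The demethylase Kdm3a was at 0.82 (adjusted p = 0.073), Kdm4c at -0.59 (0.177) and the methyltransferase Suv39h2 at 0.03 (0.96).

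**Figure D3:**
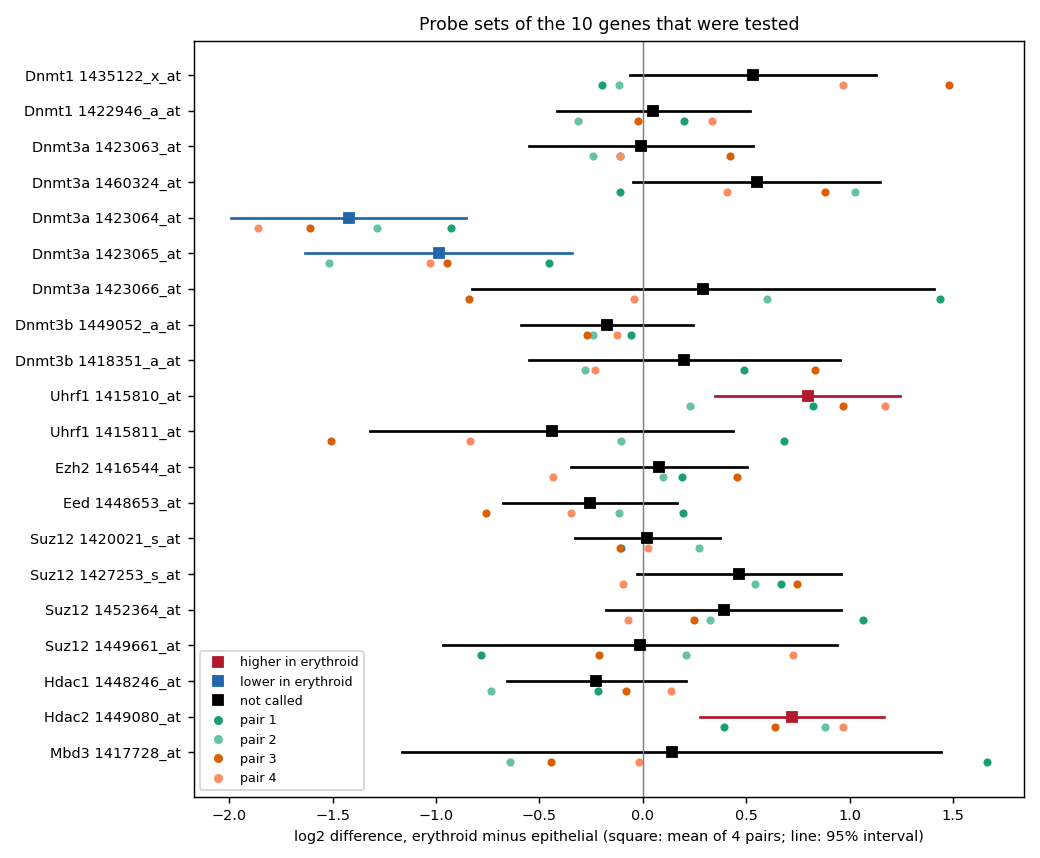
Log2 difference, erythroid minus epithelial, of the 20 tested probe sets (square, mean of 4 pairs; line, 95% interval; dots, single pairs). The intervals of Uhrf1 1415810_at and Hdac2 1449080_at lie above 0, those of Dnmt3a 1423064_at and 1423065_at below it, and the other 16 include 0.

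**Figure D4:**
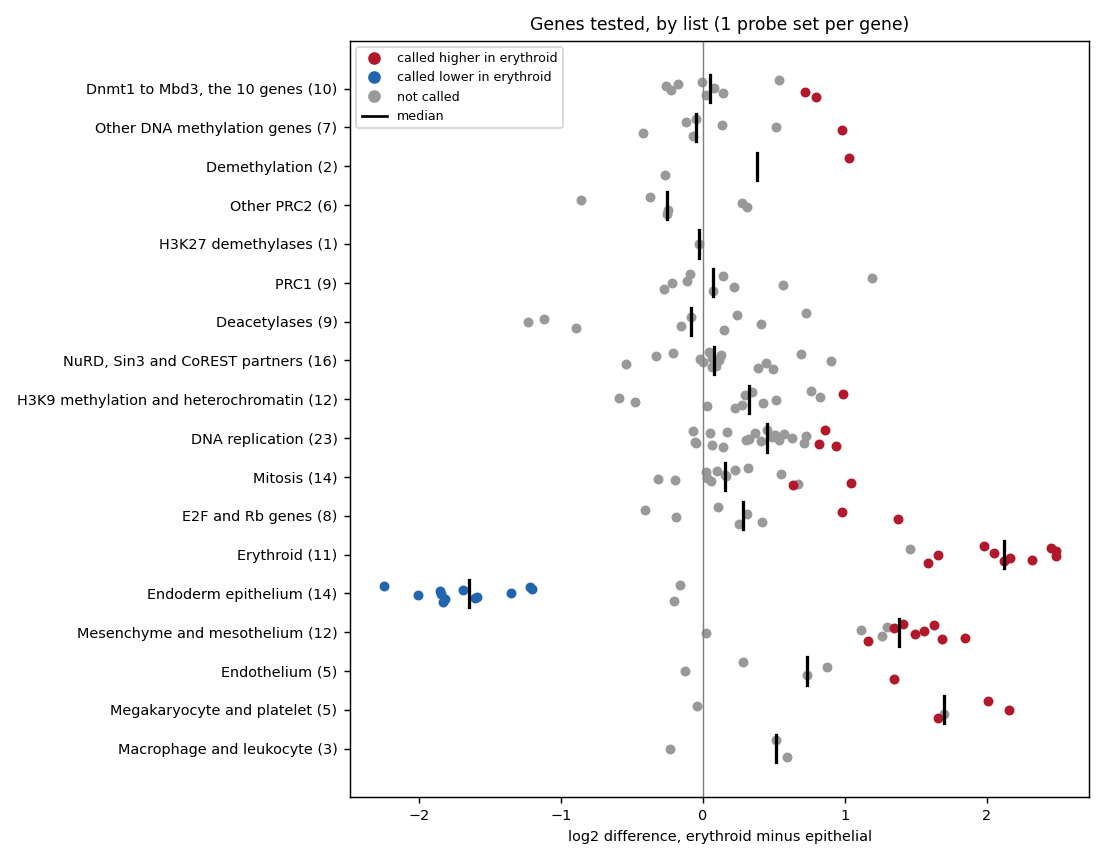
Log2 difference, erythroid minus epithelial, of each tested gene by list, with the number tested in parentheses and a black bar at the median. The 10 repressor genes lie between -0.26 and 0.80, whereas red cell markers reach 2.49 and endoderm markers -2.25.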

How the data were processed

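Values came from 8 arrays, 4 erythroid and 4 epithelial captures. The authors deposited 1 intensity per probe set and array on a linear scale. GCOS, MAS5 and affy are named, per the submitters' processing notes, versions not given in the sources used here. The deposited values had a mean of 500.0 on every array once 2% at either end was trimmed. Of 22626 probe sets that were no controls, 20380 were annotated to 1 gene, 691 to several and 1555 to none, by the platform annotation, with symbols updated by gene identifier for 20351.

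To each value 8.14 was added, which is the 10th percentile of the table, log2 was taken and the arrays were quantile normalised, since their medians spanned 0.59, above the limit of 0.5. Probe sets at or above their array's median on at least 4 arrays were tested (11449) with limma 3.58.1 in R 4.3.3, with a variance trend, a term for the pair and 3 residual degrees of freedom. P-values are two-sided and adjusted over all probe sets tested, at 0.05. A second fit tested the difference between pairs 1 and 2 and pairs 3 and 4. Each gene was represented by the probe set, among those tested, whose log2 level averaged highest. The pairing comes from the labels. Deviations of paired captures from their group means correlated at 0.31 to 0.54. Captures of different pairs were not compared in this way, so these values do not test the pairing. The fit was tested on simulated data with known changes.

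The members and the lists were chosen with earlier results of these data known. Named were all member probe sets and, of each list, the genes called, those with the largest differences in each direction and the 1 with the smallest, though not all of them are printed; Chd4 and Kdm1a were chosen after their values were seen. Captures of a pair pooled several yolk sacs, and the number of arrays limits the precision.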

Additional observations from a re-analysis of the deposited data

Results flagged for a closer look

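The outer value of each group of 4 captures was compared with its neighbours for all 23 probe sets, 46 groups in all, and 1 stood apart, where chance gives about 1 in 20 groups. On Dnmt1 1435122_x_at the erythroid capture of pair 1 was at 11.70 on the normalised log2 scale, and the other 3 lay between 11.26 and 11.33. Its partner, the epithelial capture of pair 1, was the brightest of the epithelial captures as well (4084).

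The same probe set was the 1 of 20 whose difference between cell types was not the same in both sets of pairs by the test of that difference: the change in pairs 3 and 4 exceeded that in pairs 1 and 2 by 1.38 on the log2 scale (limma adjusted p = 0.0257). The Actb control was 46.5 to 131 times brighter at its 3' end than at its 5' end in pairs 1 and 2, and 7.75 to 13.5 times in pairs 3 and 4. The part of this in the result was not tested.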

How the results depend on the processing

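Of the 4 member calls and 10 related gene calls, an offset of 32, the filter on background and the filter on all 8 arrays ended none that they still tested. Dnmt3a 1423064_at and 1423065_at were not tested with the filter on all 8 arrays. With arrays centred on their medians, which put the median over all probe sets tested at -0.11 (0.02 with quantile normalisation), 455 probe sets were higher and 1097 lower (29.3% of calls higher), against 709 and 881 (44.6%); 0 member probe sets and 0 member genes were higher. Without the pair term, that is with no replicate block, 160 probe sets were higher and 285 lower, 4 of 4 member calls and 9 of 10 related calls ended, and 0 member probe sets were higher, 0 lower and 0 member genes higher, while 2199 probe sets had an unadjusted p under 0.05. Without a variance trend the counts were 179 and 339, with 0 member probe sets higher and 1 lower, and 0 member genes higher and 0 lower (8 of 10 related calls ended). Pairs 1 and 2 alone gave 475 higher and 543 lower, with 0 member probe sets higher, 0 lower and 0 member genes higher (2293 at an unadjusted p under 0.05), and pairs 3 and 4 alone gave 1402 and 1457, with 3 member probe sets higher and 1 lower. The member count of lower probe sets was 1 with the deposited scaling, 75th percentile centring, an offset of 1 and no filter, and 0 with the filter on all 8 arrays. With genes read from the probe set of highest mean deposited signal, an alternative chosen after seeing the data, 2 member genes were higher and 1 lower. Leaving out 1 pair at a time gave 202 to 690 higher and 332 to 829 lower probe sets, 0 to 1 member probe sets and 0 to 1 member genes higher, and 1 to 2 member probe sets lower. The difference between pair sets was called for 211 probe sets, 412 with median centring, 0 without a variance trend (limma; 1530 at an unadjusted p under 0.05 in the fit with the trend) and 217 to 531 with a pair left out; for members it was 1, but 0 with median centring, 75th percentile centring and no variance trend, and 0 to 1 with a pair left out.

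Signs turned only among member probe sets that were not called. They did so with the deposited scaling for Dnmt3a 1423063_at (0.093), Suz12 1420021_s_at (-0.022) and Suz12 1449661_at (0.18), and with 75th percentile centring for the same 3 (0.059, -0.056 and 0.14). With median centring they did so for Dnmt1 1422946_a_at (-0.11), Ezh2 (-0.13) and Suz12 1420021_s_at (-0.21). In pairs 1 and 2 alone they did so for Dnmt1 1422946_a_at (-0.055), Dnmt1 1435122_x_at (-0.16), Uhrf1 1415811_at (0.29) and Eed (0.039). In pairs 3 and 4 alone they did so for Dnmt3a 1423063_at (0.16), Dnmt3a 1423066_at (-0.44), Suz12 1420021_s_at (-0.042), Suz12 1449661_at (0.26), Hdac1 (0.026) and Mbd3 (-0.23). The mean of both Dnmt3b probe sets was 0.014. With 1 pair left out the ranges that crossed 0 were -0.045 to 0.17 for Dnmt1 1422946_a_at, -0.15 to 0.068 for Dnmt3a 1423063_at, -0.094 to 0.67 for Dnmt3a 1423066_at, -0.0090 to 0.36 for Dnmt3b 1418351_a_at, -0.048 to 0.25 for Ezh2, -0.063 to 0.064 for Suz12 1420021_s_at, -0.26 to 0.24 for Suz12 1449661_at and -0.37 to 0.40 for Mbd3. The cause was not tested. Signal over background limits Mbd3, Dnmt3a 1423066_at, the 3 probe sets not tested and others that were not above it on every array. On Dnmt3a 1423064_at and 1423065_at and on Uhrf1 1415811_at, 3 of 4 erythroid captures lay above background. On Dnmt3b 1418351_a_at 3 of 4 epithelial captures did. On Suz12 1449661_at it was 3 of 4 erythroid and 2 of 4 epithelial captures.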

Other observations

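The level of some member probe sets, averaged over both cell types, differed between the pair sets. The mean over both cell types was higher in pairs 3 and 4 than in pairs 1 and 2 by 3.02 on the normalised log2 scale for Mbd3 and by 1.68 for Dnmt3a 1423066_at, and it fell by 0.94 for Dnmt1 1435122_x_at. The other 17 tested probe sets lay between -0.68 and 0.70. On Dnmt1 1435122_x_at the epithelial captures went from 11.90 and 11.45 in the first set to 9.80 and 10.29 in the second. Its erythroid captures went from 11.70 and 11.33 to 11.28 and 11.26. On Dnmt3a 1423066_at the erythroid capture of pair 1 (7.08) lay above that of pair 3 (6.99).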
